A study of Homo sapiens with 40 samples.

Results

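KARPAS-45 is a human T-cell acute lymphoblastic leukaemia (T-ALL) line, and it was compared here with 5 other T-ALL lines of the same count table. Its 4 libraries are 4 of the 40 in the series. They were set against 20 libraries of ALL-SIL, DND-41, HPB-ALL, LOUCY and TALL-1, 4 for each line, and the remaining libraries come from knockdown experiments that are not analysed here. The study sequenced the 6 lines to relate splicing to the level of QKI, an RNA-binding protein. All 24 libraries are of untreated cells. By the labels the groups differ by line and by the medium, which held 20% serum for KARPAS-45 and HPB-ALL and 10% for the other 4 lines. KARPAS-45 is a single line, and its identity and its serum cannot be told apart except against HPB-ALL. The sources used here do not say whether the 4 libraries of a line came from separate cultures, so the spread behind each p-value is that between libraries and may be technical.

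T-ALL arises from developing T cells. Most cases depend on NOTCH signalling, in which a receptor on one cell is cleaved after meeting a ligand on a neighbour and its released part switches on target genes. KARPAS-45 is known for a chromosomal fusion of KMT2A, a histone methyltransferase that keeps developmental genes active, with FOXO4, a forkhead transcription factor. Leukaemias with a KMT2A fusion are known for high HOXA cluster genes and MEIS1.

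The deposited values are whole-number read counts per gene. Levels are given as CPM, counts rescaled to a common total of 1e+06 with TMM, a normalization that equalizes the bulk of genes between libraries. A gene was called at an adjusted p under 0.05 in edgeR's quasi-likelihood test of KARPAS-45 against the mean of the 5 other line means. It was called separated where, in addition, all 4 KARPAS-45 libraries lay above, or all below, all 20 others. Genes with 0 counts in a group have no finite fold, so 3 counts per library stood in for 0 and the fold is written as "at least". A fold is the ratio of the mean CPM of KARPAS-45 to the mean of the 5 line means, whereas a log2 fold change is the fitted value against the mean of the line logarithms, so the sizes of a fold and a log2 fold change of one gene can differ.

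The KARPAS-45 libraries stood apart from the others in depth, in mitochondrial share and in how their differences followed gene length and GC content. They held 75.6 M to 84.0 M counts (M, a unit of 1e+06), and the other 20 held 44.1 M to 64.8 M. Mitochondrial genes took 0.671% to 1.43% of KARPAS-45 counts and 3.78% to 9.49% of the others. Among 9676 well-expressed coding genes, the median log2 difference between KARPAS-45 and the other lines went from -0.30 in the shortest of 8 length bins to 0.56 in the longest. By GC content it went from 0.64 in the lowest bin to -0.32 in the highest. The span between the extreme bins was 0.854 for length and 0.960 for GC in KARPAS-45. In the other 5 lines it was 0.0973 to 0.273 for length and 0.0692 to 0.591 for GC. Every call against the mean of the 5 lines was therefore also computed after a correction for length and GC, chosen after seeing the data. Contrasts with single lines were computed without the correction only. A difference smaller than these spans is best read beside its corrected value, which is not printed for every gene and does not exist for single lines. The source of the trends was not tested.

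**Figure D1:**
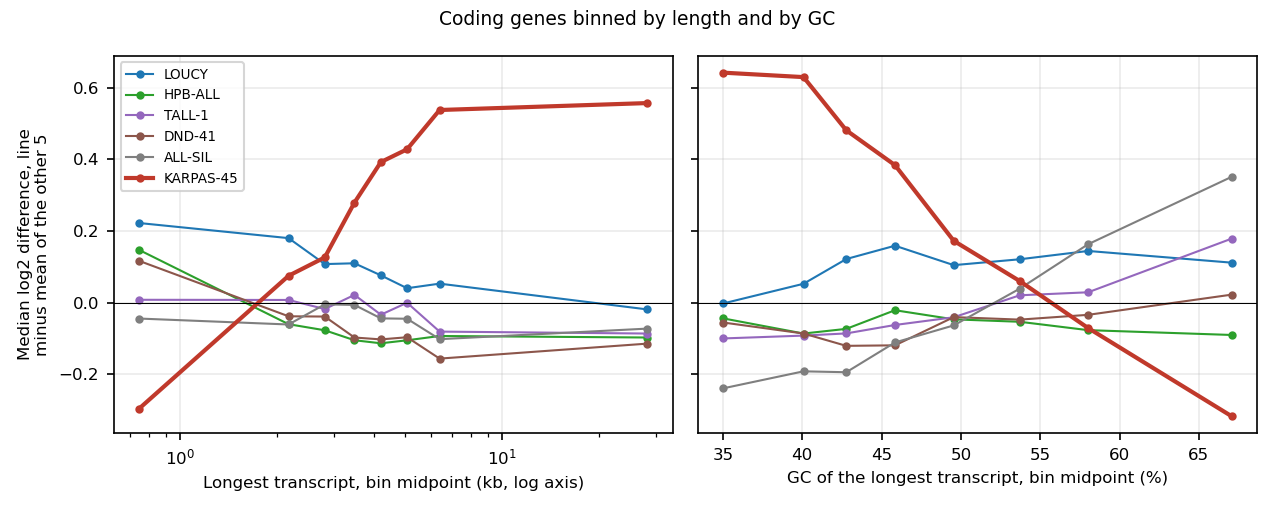
Median log2 difference between each line and the mean of the other 5, for coding genes in 8 bins of transcript length (left, kb on a log axis) and of GC content (right, percent); each point is a bin and each colour a line. The KARPAS-45 curve climbs from -0.30 to 0.56 with length and drops from 0.64 to -0.32 with GC.

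Of 20348 genes tested, 7930 were higher in KARPAS-45 (39%) and 6959 were lower (34.2%). The excess of higher calls depends on the tool: DESeq2 gave 7973 and 7994, and limma-voom 7934 and 8607. All 4 KARPAS-45 libraries were above all 20 others for 3341 of them (16.4%) and below all 20 for 2500 (12.3%). With the correction, 8279 genes were higher (40.7%) and 6348 lower (31.2%), and 3279 (16.1%) and 2240 (11%) were separated, and 4383 of the 5841 separated genes kept their separation and direction. The mean over lines is a mean of logarithms, so a line at 0 counts weighs heavily in it: 814 genes were called higher although their mean CPM lay below the mean of the 5 line means. For genes of that kind the values against single lines are given in its place. Against single lines, KARPAS-45 was higher for 7235 genes and lower for 7868 against LOUCY (35.6% and 38.7%). The counts were 6986 and 8515 against HPB-ALL (34.3% and 41.8%), and 7390 and 7304 against TALL-1 (36.3% and 35.9%). They were 7308 and 7805 against DND-41 (35.9% and 38.4%), and 7508 and 7620 against ALL-SIL (36.9% and 37.4%). A total of 3412 genes were higher against each of the 5 lines in turn (16.8%) and 2933 were lower (14.4%). Across genes, the rank correlation of mean levels with KARPAS-45 was 0.799 for LOUCY, 0.813 for HPB-ALL, 0.836 for TALL-1, 0.821 for DND-41 and 0.818 for ALL-SIL. Pairs of the other lines gave 0.811 to 0.895, and genes are not independent replicates.

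The 5 genes that mark KARPAS-45 here, FBLN1, CRABP1, PYGO1, MEIS1 and NOTCH3, were all separated, and they had been chosen on these data. FBLN1 encodes fibulin-1, a protein of the extracellular matrix (chromosome 22, 45502238 to 45601135 on GRCh38). Its 4 libraries held 164, 209, 224 and 200.3 CPM, and the 20 others held 0 to 0.128 CPM with a median of 0. Every KARPAS-45 library was far above every other, and the level was 18107-fold higher than the mean of the 5 lines (adjusted p = 2.89e-19). CRABP1, the cytosolic binding protein for retinoic acid (chromosome 15, 78340324 to 78348230), stood at 74.8, 77.9, 70.3 and 66.1 CPM. No read of it was counted in any of the 20 other libraries, which makes it at least 1285-fold higher (adjusted p = 1.25e-13). PYGO1 encodes a pygopus protein that joins beta-catenin complexes in WNT signalling (chromosome 15, 55538890 to 55588947). It held 173, 163, 167 and 162 CPM against 0 to 0.0973 CPM with a median of 0 elsewhere, with no overlap, and was 12400.5-fold higher (adjusted p = 8.23e-23). The folds of FBLN1 and PYGO1 divide by levels near 0, whereas that of CRABP1 divides by the stand-in of 3 counts. Their sizes therefore do not rank these genes by how specific they are to KARPAS-45.

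MEIS1, a homeobox partner of HOX proteins (chromosome 2, 66433452 to 66573869), was at 144, 136, 138 and 129 CPM in KARPAS-45 and at 0 to 0.394 CPM with a median of 0 in the others. HPB-ALL came next at 0.363 ± 0.0549 CPM (SD, n = 4), and the KARPAS-45 level was 1864-fold higher than the mean of the lines (adjusted p = 1.34e-20). NOTCH3, a receptor of the NOTCH pathway (chromosome 19, 15159038 to 15200981), differs from the other markers in being expressed in 4 of the 5 other lines. The 4 KARPAS-45 libraries held 1099.9, 1107, 1089 and 985 CPM, against 0.0904 to 849 CPM with a median of 270.2 in the others, and all 4 lay above all 20. The means of the other lines were 0.158 in LOUCY, 355 in HPB-ALL, 799.7 in TALL-1, 363 in DND-41 and 196 in ALL-SIL. TALL-1 was the nearest, and the difference from it did not pass the test (log2 fold change 0.42, adjusted p = 0.127); each of the other 4 lines was lower than KARPAS-45, with adjusted p of 4.67e-06 or less.

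**Figure D2:**
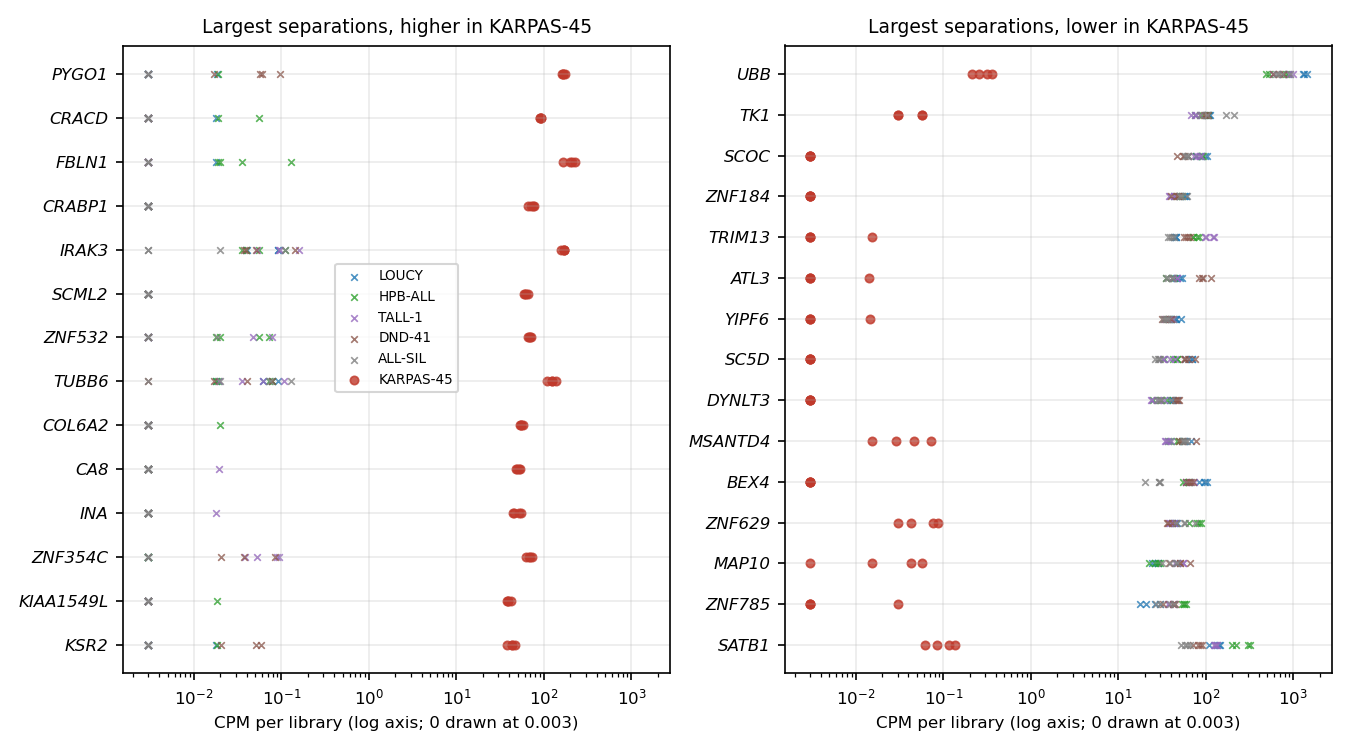
CPM of each library on a log axis for genes with wide separations above (left, 14 genes) and below (right, 15 genes) the other lines; filled circles are the 4 KARPAS-45 libraries, crosses are the 20 others coloured by line, and 0 is drawn at the left edge. In every row the circles and the crosses are apart.

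Among the widest separations on the high side were 3 of these markers and 11 further genes. IRAK3 encodes a kinase-like brake on Toll-like receptor signalling (chromosome 12, 66188879 to 66254622) and held 169, 156, 169 and 171 CPM against 0 to 0.159 CPM with a median of 0.052, with no overlap. SCML2, a Polycomb group protein (chromosome X, 18239314 to 18354727), reached 58.6, 61.8, 65.2 and 60.4 CPM and had no read in the 20 other libraries, at least 1094-fold higher (adjusted p = 1.47e-13). TUBB6, a beta-tubulin (chromosome 18, 12307669 to 12344320), held 124, 137, 123 and 109 CPM and at most 0.128 CPM elsewhere; it overlaps AFG3L2 on the other strand, and no source at hand says whether counting used strand. COL6A2, a chain of collagen VI (chromosome 21, 46098097 to 46132849), held 54.5, 58.2, 53.9 and 54.2 CPM and had a single counted read in the others. The remaining 7 were CRACD (91 CPM in KARPAS-45), ZNF532 (68.4), ZNF354C (67.6), CA8 (50.5), INA (49.2), KSR2 (42.9) and KIAA1549L (39.1). None of these 7 exceeded 0.0935 CPM in any of the 20 other libraries. INA is a neuronal intermediate filament protein and KSR2 a scaffold of the RAF-MEK-ERK cascade. All 14 stayed separated after the correction.

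The 15 widest separations on the low side were of genes at or near 0 in KARPAS-45 and active in every other line. UBB, one of the genes for polyubiquitin (chromosome 17, 16380798 to 16382745), had 0.258, 0.357, 0.317 and 0.215 CPM in KARPAS-45 and 493 to 1438 CPM with a median of 765 in the others. The groups lay far apart, and UBB was 2910.5-fold lower (log2 fold change -11.46, SE 0.32, adjusted p = 2.6e-20). UBBP4, a ubiquitin B pseudogene, went the other way under ENSG00000290919.1, 1 of its 2 identifiers (the other, ENSG00000263563.8, has no read in any library), with 663 reads in the 4 KARPAS-45 libraries (1.59, 2.3, 2.75 and 3.16 CPM) and at most 0.0394 CPM elsewhere, so how reads were split between copies is uncertain, although these levels are far below those of UBB in the other lines. UBBP4 was added after its values were seen. TK1, the cytosolic thymidine kinase that salvages thymidine for DNA synthesis (chromosome 17, 78174075 to 78187233), had 0.0304, 0.0571, 0.0576 and 0.0307 CPM against 68 to 212 CPM with a median of 102. Its level was 2368-fold lower (log2 fold change -11.10, SE 0.31, adjusted p = 3.42e-20). SC5D, the sterol-C5-desaturase that acts late in cholesterol synthesis (chromosome 11, 121292453 to 121308694), had no read in the 4 KARPAS-45 libraries and 26.4 to 75 CPM with a median of 45.3 elsewhere, at least 1066-fold lower (adjusted p = 7.55e-21). SATB1, an organizer of chromatin in thymocytes (chromosome 3, 18345387 to 18445588), was at 0.137, 0.0857, 0.115 and 0.0614 CPM and at 51.4 to 321 CPM with a median of 125 in the others (log2 fold change -10.16, SE 0.22, adjusted p = 1.78e-22); it overlaps TBC1D5 and its own antisense gene.

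Of the other 11 on the low side, SCOC, ZNF184, DYNLT3 and BEX4 had no read in KARPAS-45 either, while none of the 20 other libraries was below 20.0 CPM for any of them. TRIM13, ATL3 and YIPF6 had 1 read in all 4 KARPAS-45 libraries together, and ZNF785 had 2. MSANTD4, ZNF629 and MAP10 stood at 0.0403, 0.0589 and 0.0289 CPM. ATL3 encodes an atlastin that shapes the endoplasmic reticulum, YIPF6 a Golgi membrane protein, DYNLT3 a light chain of dynein and TRIM13 a ubiquitin ligase. SCOC overlaps its antisense gene and TRIM13 overlaps DLEU2 and KCNRG. All 15 stayed separated after the correction.

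Silence in KARPAS-45 alone was counted with a stricter rule, at most 3 counts in each of its libraries and at least 1 CPM in all 20 others. It held for 64 genes, among them 7 zinc finger genes, 10.9% where zinc finger genes are 2.93% of all tested. The same rule applied to each other line found 36 genes for LOUCY, 35 for HPB-ALL, 77 for TALL-1, 19 for DND-41 and 74 for ALL-SIL, so KARPAS-45 is within the range of the lines. Zinc finger genes were 8.57% of the silent genes of HPB-ALL, 8.11% of those of ALL-SIL, 5.56% in LOUCY, 5.19% in TALL-1 and none of the 19 in DND-41. The mirror rule, active in 1 line alone, found 91 genes for KARPAS-45, against 123 for LOUCY, 90 for HPB-ALL, 12 for TALL-1, 20 for DND-41 and 15 for ALL-SIL.

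Some silent genes share a start region, and these are shown because both neighbours are near 0 in the same line. AFMID, which encodes a formamidase of tryptophan breakdown (chromosome 17, 78187317 to 78207701), starts 84 bases from TK1 on the other strand in GENCODE 29. It held 0.0152, 0, 0.0144 and 0 CPM in KARPAS-45 against 11.8 to 48.2 CPM with a median of 23.7 in the others, 3565-fold lower (95% counting interval 987 to 29434), so both genes of the pair were near 0. The long non-coding RNAs LINC00526 and LINC00667 on chromosome 18 have GENCODE 29 starts 772 bases apart, between which the models overlap. Their RefSeq starts leave 70 bases between them, which lie inside both GENCODE models. LINC00526 had no read in KARPAS-45 and at least 1.78 CPM in every other library; LINC00667 had 1 read in the 4 libraries and 11.3 to 169 CPM with a median of 119 in the others. The bases between the RefSeq starts of each pair, and those before the start of CRABP1, active in KARPAS-45 alone, follow from RefSeq on GRCh38.p14, plus strand, trimmed for the coding genes to bases outside their GENCODE models, 5′ to 3′, with each CG dinucleotide, the site of DNA methylation, in capitals.
TK1 and AFMID, chr17:78187234-78187316: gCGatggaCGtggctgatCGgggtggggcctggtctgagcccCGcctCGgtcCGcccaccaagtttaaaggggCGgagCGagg
LINC00526 and LINC00667, chr18:5238030-5238099: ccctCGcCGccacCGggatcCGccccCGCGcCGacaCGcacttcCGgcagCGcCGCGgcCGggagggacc
CRABP1, chr15:78340103-78340323: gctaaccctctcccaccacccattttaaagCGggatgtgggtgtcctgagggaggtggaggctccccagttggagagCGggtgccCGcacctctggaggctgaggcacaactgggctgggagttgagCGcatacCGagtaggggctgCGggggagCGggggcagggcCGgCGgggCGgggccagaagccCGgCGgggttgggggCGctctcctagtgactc

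The stretch shared by TK1 and AFMID holds 8 CG dinucleotides in 83 bases, that of the LINC pair 13 in 70. The 221 bases before CRABP1 hold 13. Over RefSeq windows of 300 bases around the start, 27 of the 48 silent genes with a window were CpG-rich (56.2%, an observed-to-expected ratio of at least 0.6 and GC of at least 50%). The share was 40 of 52 for the genes active in KARPAS-45 alone (76.9%) and 9299 of 12453 for all tested genes with a window (74.7%). The motif GGGCGG, read on both strands, was in 66.7% of the windows of silent genes, 78.8% of those of active ones and 66.5% of all. DNA methylation was not analysed here.

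The HOXA cluster was at or near 0 in KARPAS-45 while its cofactor MEIS1 was high. HOXA genes encode homeobox transcription factors of body axis and blood stem cells. Of 11 HOXA genes, HOXA13 alone was above the floor of 3 counts in KARPAS-45, at 0.774, 0.771, 0.662 and 0.813 CPM. HOXA9, the member best known in leukaemia, had 64.7 ± 13.9 CPM (SD, n = 4) in LOUCY and no read in KARPAS-45 or any of the remaining 4 lines. The summed level of the 11 genes was 0.691 to 0.859 CPM in KARPAS-45 and 0 to 358 CPM in the other libraries. No HOXA gene was separated, and in TALL-1 HOXA11 alone had a read. HOXA13 was called higher against the mean of the lines with HPB-ALL, TALL-1 and ALL-SIL at or near 0, although its level was lower than in LOUCY (log2 fold change -5.29, adjusted p = 4.02e-15) and DND-41 (log2 fold change -1.31, adjusted p = 6.24e-06). HOXA5, for example, was lower than in LOUCY (log2 fold change -11.12, adjusted p = 7.55e-17) and than in ALL-SIL (log2 fold change -9.15, adjusted p = 3.07e-15), with 2 reads in the 4 KARPAS-45 libraries and 0 in TALL-1.

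The cofactors of the same homeobox superclass, the TALE proteins, were mixed. Of 10 tested, 4 were higher (MEIS1, PBX3, PKNOX1, TGIF2; 39% of all genes were) and 4 lower (MEIS2, PBX2, PBX4, TGIF1; 34.2% of all genes were). The call of MEIS2 was lost without TALL-1 replicate 1 or without DND-41 replicate 4 (adjusted p = 1 for each in edgeR). MEIS1 and PKNOX1 were separated higher, beside 16.4% of all genes, and MEIS1 is a marker chosen on these data. PKNOX1, a MEIS-related factor, held 100.2, 109, 94.5 and 98.9 CPM against 22.3 to 37.6 CPM with a median of 31.4, with no overlap (log2 fold change 1.73, SE 0.07, adjusted p = 1.62e-16). PBX3, the usual partner of MEIS1 and HOXA9, was at 46 ± 0.473 CPM, below LOUCY and HPB-ALL and above the other 3 lines (adjusted p of 1.4e-05 or less against each). MEIS2 had no read in KARPAS-45 and 15 and 16.5 CPM on average in HPB-ALL and ALL-SIL.

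The fusion partners went in opposite directions. KMT2A held 59.9, 47.6, 54.3 and 60.4 CPM in KARPAS-45 and 126 to 270.3 CPM with a median of 201 in the others (chromosome 11, 118436464 to 118526832). All 4 libraries lay below all 20, 3.54-fold lower (log2 fold change -1.79, SE 0.12, adjusted p = 6.91e-13). FOXO4 (chromosome X, 71096197 to 71103535) held 36.6, 36.2, 39.9 and 35.7 CPM against 13 to 27.1 CPM with a median of 18.7. The groups did not overlap, and FOXO4 was 1.92-fold higher (log2 fold change 0.95, SE 0.12, adjusted p = 9.03e-08), which did not pass a test against a fold of 2. Gene counts do not tell fusion reads from reads of the intact genes. Among 19 genes of KMT2A complexes and fusion partners, 10 were separated higher, against 16.4% of all genes, and 1, KMT2A, lower; with the correction 10 and 2 (MLLT6 joining). AFF1, a subunit of the super elongation complex and itself a KMT2A partner in other leukaemias, reached 478, 384, 412 and 447 CPM against 68.7 to 204 CPM with a median of 108, again without overlap (log2 fold change 1.98, SE 0.11, adjusted p = 2.21e-14). RBBP5, a core subunit of the methyltransferase complex, and HCFC1, a host factor bound by it, had log2 fold changes of 1.28 and 1.22 (0.89 and 1.41 corrected). Of 17 tested genes often high in KMT2A-rearranged leukaemia, 3 were separated higher (CDK6, JMJD1C, SKIDA1) and 2 lower (CD44, FUT4), close to the 16.4% and 12.3% of all genes; with the correction 2 and 2, as CDK6 left. CDK6, JMJD1C and FUT4 did not pass against a fold of 2 (adjusted p = 0.115, 0.0506 and 1). The list's median log2 fold change was -1.91 (-1.34 corrected) beside -0.07 over all genes.

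**Figure D3:**
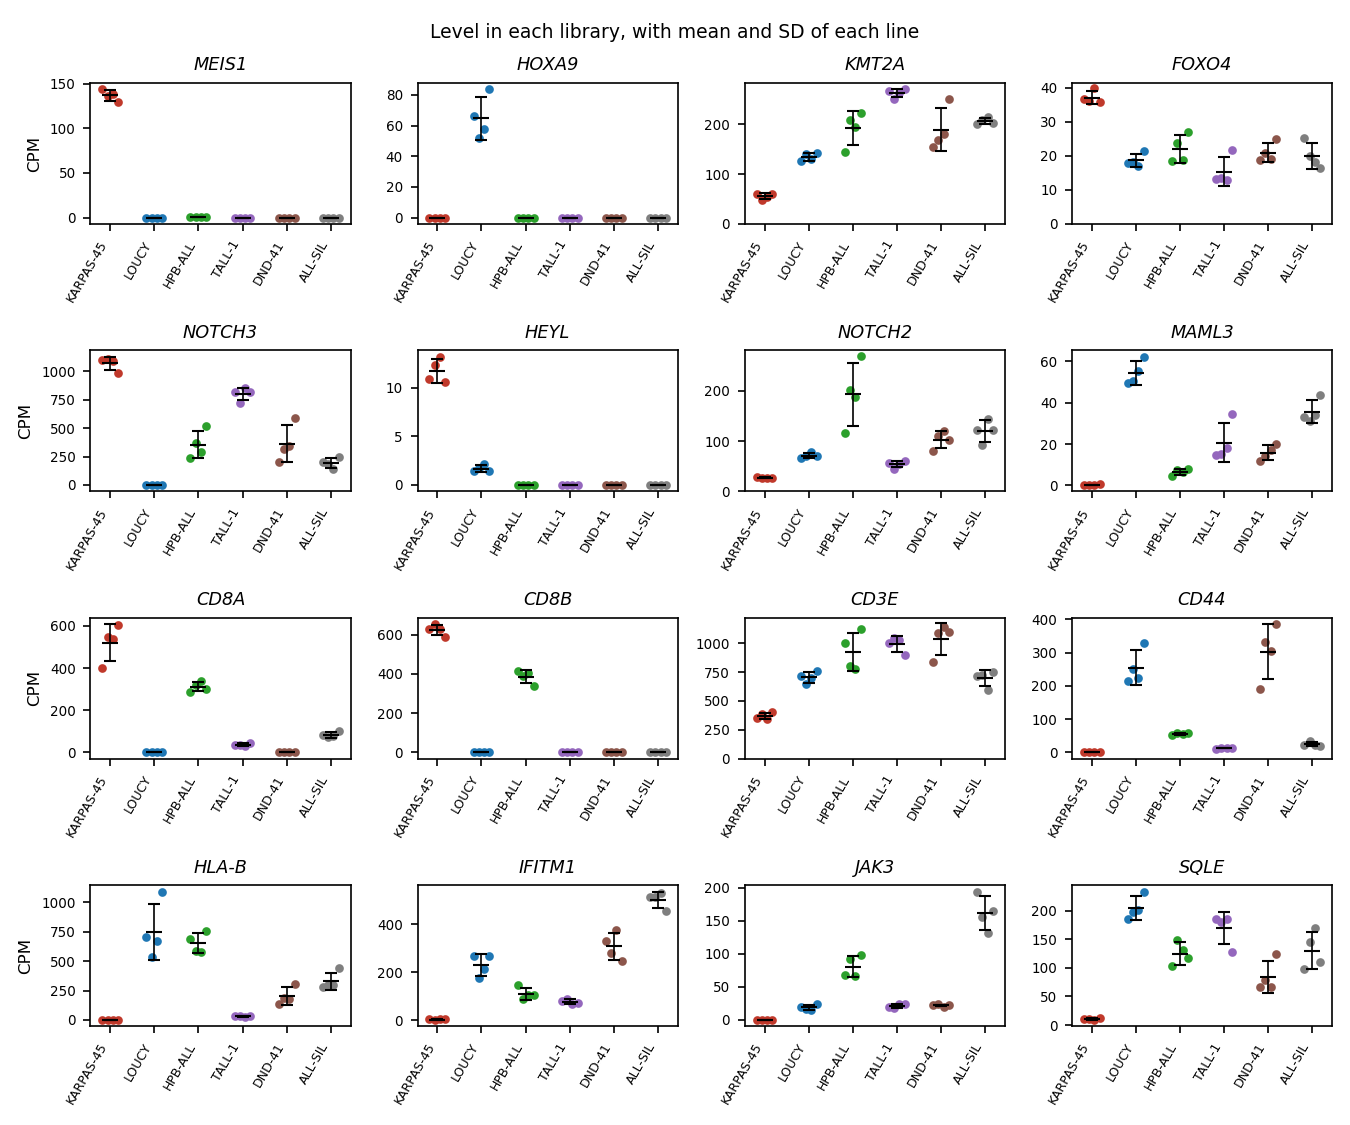
CPM of each library (points) with the mean and SD (bars) of each of the 6 lines for 16 genes named in the text, on linear axes of their own. KARPAS-45 stands at 129 to 144 CPM of MEIS1 and is the highest line for FOXO4, NOTCH3, HEYL, CD8A and CD8B; it is the lowest for KMT2A, NOTCH2, MAML3, CD3E, CD44, HLA-B, IFITM1, JAK3 and SQLE, while HOXA9 appears in LOUCY.

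In the NOTCH pathway, receptors were split in KARPAS-45 and several targets were high. Beside NOTCH3, NOTCH1 held 894, 926, 853 and 869.9 CPM (61.6 in LOUCY, 637 in HPB-ALL, 309 in TALL-1, 435 in DND-41 and 695 in ALL-SIL). Its libraries overlapped those of other lines, although with the correction they were separated. Against ALL-SIL the difference did not pass the test (log2 fold change 0.35, adjusted p = 0.0645). NOTCH2 was the opposite, at 28.6, 26, 27.4 and 27.4 CPM against 45.1 to 268 CPM with a median of 96.8, all 4 below all 20 (log2 fold change -1.84, SE 0.16, adjusted p = 8.29e-11). NOTCH4 was 40.6-fold lower at 0.026 ± 0.0078 CPM (SD, n = 4; log2 fold change -4.71, SE 0.30, adjusted p = 4.08e-13). JAG2, a membrane ligand of NOTCH receptors, held 19.6, 23.7, 21.2 and 21.1 CPM against 0 to 4.06 CPM with a median of 0.0745, and only LOUCY among the other lines had more than 0.456 CPM on average. JAG2 was separated and 26-fold higher (adjusted p = 3.49e-23).

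ADAM10, the protease that makes the first cut in a ligand-bound receptor, was at 835, 826, 819.5 and 806 CPM against 98.9 to 340 CPM with a median of 156 (log2 fold change 2.14, SE 0.10, adjusted p = 4.43e-16; 1.59 corrected). RBPJ, the DNA-binding protein of the pathway, was also separated higher, at 173 ± 12.9 CPM (log2 fold change 1.40, SE 0.06, adjusted p = 2.54e-16; 0.80 corrected). The coactivator MAML3 was at 0.349, 0.314, 0.302 and 0.491 CPM where the others held 4.72 to 62.1 CPM with a median of 19.1, and it was 72.9-fold lower (log2 fold change -5.85, SE 0.28, adjusted p = 1.1e-15). PSENEN, a subunit of gamma-secretase, the protease of the second cut, was lower too (log2 fold change -2.60, SE 0.26, adjusted p = 1.35e-09). Of 27 tested receptor, ligand and processing genes, 6 were separated higher and 4 lower (NOTCH2, NOTCH4, PSENEN, MAML3). The shares of all genes were 16.4% and 12.3%. With the correction the counts were 7 and 4, as NOTCH1 joined. The 6 include NOTCH3, a marker chosen on these data.

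Among 15 tested NOTCH targets, 11 were higher and 3 lower (HEY1, IL7R, TRIB2), beside 39% and 34.2% of all genes. Of these, 4 (HEYL, NRARP, IGF1R, NOTCH3) and 2 (IL7R, TRIB2) were separated, beside 16.4% and 12.3%. NOTCH3 is a marker chosen on these data, and the correction ended the separation of IGF1R. HEYL, a transcriptional repressor induced by NOTCH, held 10.9, 12.3, 13.2 and 10.6 CPM; LOUCY held 1.67 ± 0.349 and the other 4 lines at most 0.00456 CPM on average. NRARP, a feedback inhibitor of the NOTCH complex, held 43.9, 66, 72.1 and 67.2 CPM against 0 to 24.4 CPM with a median of 0.12. Both were separated (adjusted p = 3.55e-16 and 2.59e-17), with library 1 of KARPAS-45 the lowest for NRARP. DTX1, a ubiquitin ligase and NOTCH target, was called higher against the mean of the lines with LOUCY at 0, but was below the 4 lines that express it: KARPAS-45 held 123 ± 9.63 CPM, and those 4 held from 399.9 in ALL-SIL to 886 in DND-41, each higher (adjusted p of 9.06e-11 or less; without LOUCY the fitted log2 fold change turned to -2.32). IL7R, the interleukin 7 receptor and another target, was at 0.137, 0.186, 0.187 and 0.199 CPM against 0.37 to 693 CPM with a median of 42.6, below all 20 (log2 fold change -7.41, SE 0.39, adjusted p = 7.71e-15). HES1 and MYC, central targets, were within the range of the other lines, at 41.8 ± 3.42 and 466 ± 49.1 CPM in KARPAS-45. Both were nonetheless called higher against the mean of the lines, and without LOUCY the call of HES1 was lost (adjusted p = 0.178 in edgeR).

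WNT genes are ordered here from receptor to nucleus. FZD6, a frizzled receptor, had no read in KARPAS-45 and 10.4 to 64 CPM with a median of 24.1 in the others, at least 677-fold lower (adjusted p = 2.53e-19). FZD8, a related receptor, showed the reverse at a low level, 0.857 ± 0.166 CPM against at most 0.0409 (adjusted p = 9.94e-12). CTNNB1, beta-catenin, was separated higher at 220.2, 221, 220.1 and 218 CPM against 36.1 to 153 CPM with a median of 108 (log2 fold change 1.23, SE 0.06, adjusted p = 2.48e-15; 0.80 corrected). TCF7L1, a TCF factor bound by it, was at 3.93 ± 0.771 CPM and 14.2-fold higher (log2 fold change 4.16, SE 0.15, adjusted p = 4.81e-18). Of 46 tested WNT genes, 8 were separated higher (PYGO1, CTNNB1, TCF7L1, APC, GSK3B, LRP6, FZD8, WNT2B) and 4 lower (FZD6, PYGO2, AXIN1, DVL1). With the correction 7 and 3 were so, and the background is 16.4% and 12.3%. PYGO1 is a marker chosen on these data, so the count of 8 is not independent of that choice.

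Of 15 tested retinoid genes, 6 were called higher and 5 lower, close to the 39% and 34.2% of all genes. CRABP1, a marker chosen on these data, alone was separated, where 16.4% of all genes were separated higher and 12.3% lower. CRABP2, its relative, was at 0.307 ± 0.0803 CPM in KARPAS-45 and at 0.164 to 0.873 CPM with a median of 0.495 elsewhere, with overlap; it was called lower (log2 fold change -0.77, SE 0.26, adjusted p = 0.0106), a call that ended with the correction. RARA, the retinoic acid receptor alpha, was at 10.8 ± 0.926 CPM, lower than in LOUCY, HPB-ALL, TALL-1 and ALL-SIL (adjusted p of 3.72e-06 or less) but not called against DND-41 (adjusted p = 0.363).

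FBLN1 and COL6A2 had company among matrix genes. Of 42 tested genes of the extracellular matrix and basement membrane, 11 were separated higher and 1 (EFEMP2) lower, against 16.4% and 12.3%. The counts were the same in the uncorrected and the corrected fit. The 11 include FBLN1 and COL6A2 themselves, which were picked for being high in these data, so the count is not independent of that choice. FBLN2, a second fibulin, held 39.3, 47, 40.3 and 42.3 CPM against 0 to 5.11 CPM with a median of 0.373, with no overlap (adjusted p = 3.89e-20). COL5A1, a collagen V chain, held 35.7, 36.2, 35.1 and 33 CPM; LOUCY was next at 11.5 ± 1.57 CPM. HSPG2, perlecan of basement membranes, was at 3.53 ± 0.409 CPM and at most 0.0904 elsewhere. COL1A2 and COL3A1, collagens of fibroblasts, had no read in KARPAS-45, and COL1A1 was at 1.58 ± 0.281 CPM, within the range of TALL-1 (log2 fold change -0.49, adjusted p = 0.316).

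The T-cell receptor complex was present but at reduced level in part. CD3E, a signalling chain, was at 348, 383, 347 and 406 CPM against 594 to 1143 CPM with a median of 816, and all 4 were below all 20 (log2 fold change -1.21, SE 0.11, adjusted p = 2.8e-10). CD3D was lower as well (log2 fold change -1.40, SE 0.18, adjusted p = 1.92e-07), although it was not separated once corrected (-0.56). VAV3, an exchange factor downstream of the receptor, had no read in KARPAS-45 and 4.04 to 260 CPM with a median of 44.6 elsewhere, at least 1660-fold lower (adjusted p = 5.13e-19). LCK, the kinase that starts receptor signalling, was the opposite, at 830.2, 843, 817 and 730.2 CPM against 129 to 519 CPM with a median of 343 (log2 fold change 1.41, SE 0.10, adjusted p = 6.91e-12). SYK, the kinase of B-cell and pre-T receptor signalling, held 419.8, 356, 411 and 414 CPM. LOUCY was the single other line with an appreciable level, 259 ± 14.3 CPM, and was lower than KARPAS-45 (log2 fold change 0.63, adjusted p = 4.11e-05). Of 33 tested genes of the complex and its signalling, 3 were separated higher (LCK, SYK, THEMIS) and 4 lower (CD3D, CD3E, TRAT1, VAV3), beside a background of 16.4% and 12.3%. With the correction 2 and 5 were, as THEMIS and CD3D left and FYN and PTPN22 joined the lower side.

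Constant genes of the receptor chains varied widely between lines. Of 6 tested, 3 were higher and 2 lower, beside 39% and 34.2% of all genes. TRGC1, a gamma constant region, alone was separated, on the higher side and also with the correction, beside 16.4% of all genes. It had at least 1 CPM in every KARPAS-45 library and at most 3 counts in each of the 20 others. TRBC2, a constant region of the beta chain, was at 486, 425, 783 and 645 CPM, below LOUCY, HPB-ALL and TALL-1 and above DND-41 and ALL-SIL (adjusted p of 1.31e-06 or less against each). Against the mean of the lines its fitted log2 fold change was -0.51 and turned to 0.52 with the correction. TRAC was at 97.7 ± 3.93 CPM, and TRDC, the delta constant region, had no read, against 1224 ± 78 in LOUCY, 440.3 ± 107 in ALL-SIL and 158 ± 34.8 in DND-41. RAG1, a recombinase, was at 25.9 ± 1.62 CPM, between the lines, and DNTT, terminal transferase, at 0.199 ± 0.0137. RAG1 was called higher against the mean of the lines (log2 fold change 1.70, adjusted p = 1.68e-09) but was lower than in HPB-ALL (log2 fold change -1.07). Without TALL-1 the call of RAG1 was lost (adjusted p = 0.749 in edgeR).

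Both chains of CD8 were the highest of all lines. CD8A held 398, 545, 538 and 603 CPM against 0.145 to 337 CPM with a median of 34.2. CD8B held 627, 653, 631 and 589 CPM against 0 to 417 CPM with a median of 1.13. HPB-ALL was the nearest line for both, and was lower (log2 fold change 0.75, adjusted p = 5.96e-05 for CD8A; log2 fold change 0.69, adjusted p = 0.00281 for CD8B). CD4, in contrast, was within the range of the lines at 60.3 ± 3.03 CPM. It was called higher against the mean of the lines (log2 fold change 1.45, adjusted p = 4.24e-13) but was lower than in HPB-ALL (log2 fold change -2.97). Without LOUCY the call of CD4 was lost (adjusted p = 0.575 in edgeR). Of 30 tested surface antigens, 9 were separated lower, against 12.3% of all genes, and 3 higher (CD8A, CD8B, TFRC); with the correction 8 and 2.

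The low antigens included adhesion, costimulation and tetraspanin genes. CD44, the hyaluronan receptor, was at 0.0759, 0.0714, 0.0863 and 0.046 CPM against 11.4 to 384 CPM with a median of 56.9, 1859-fold lower (log2 fold change -9.83, SE 0.28, adjusted p = 3.19e-20). CD53, a leukocyte tetraspanin, was at 0.349, 0.186, 0.36 and 0.276 CPM against 48.2 to 162 CPM with a median of 126 (log2 fold change -8.42, SE 0.22, adjusted p = 6.85e-21). In both cases no KARPAS-45 library came near the lowest of the others. CD28, the costimulatory receptor, was at 0.0189 ± 0.0194 CPM and separated, though TALL-1 was low too at 0.395. CD7, an early T-lineage antigen, was at 80.8, 103, 117 and 95.2 CPM against 175 to 982 CPM with a median of 630.1 (log2 fold change -2.42, SE 0.13, adjusted p = 9.05e-15); with the correction it was no longer separated.

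Of 33 tested T-lineage transcription factors, 19 were higher and 11 lower, beside 39% and 34.2% of all genes. Of them 8 were separated higher and 1, SATB1, lower, beside 16.4% and 12.3% (7 and 3 corrected, RUNX3 and ETV6 joining). BCL11B, which commits cells to the T lineage, held 359, 352, 379 and 374 CPM against 20.0 to 153 CPM with a median of 93.5, with no overlap (log2 fold change 2.28, SE 0.13, adjusted p = 3.27e-14). The stem-cell and T-ALL oncogene LYL1 was at 0.0152, 0.0143, 0.0576 and 0.046 CPM against 0.546 to 302 CPM with a median of 12.4, below all 20 (log2 fold change -8.19, SE 0.27, adjusted p = 6.3e-19). TLX1, TLX3, MYCN and TAL1, oncogenes of other T-ALL groups, had 0 to 2 reads in any KARPAS-45 library. WT1, a zinc finger factor often high in acute leukaemia, was at 174, 165, 159.9 and 148 CPM against 1.36 to 46.4 CPM with a median of 23.7 (log2 fold change 3.72, SE 0.11, adjusted p = 3.51e-20). CEBPA, a myeloid factor, and KIT, the stem cell factor receptor, were at 9.18 ± 1.13 and 8.68 ± 0.441 CPM in KARPAS-45 and at most 0.0535 and 0.143 in the others.

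Of 37 tested cytokine receptors and JAK-STAT genes, 18 were lower in KARPAS-45 and 9 higher, beside 34.2% and 39% of all genes. On the low side 12 were separated lower, against 12.3% of all genes, and 2, JAK2 and STAT3, higher (12 and 1 corrected). The list's median log2 fold change was -1.30 beside -0.07 over all genes. JAK3, the kinase bound by the common gamma chain (chromosome 19, 17824780 to 17848071), had 2 reads in the 4 libraries together, where the 20 others held 14.7 to 194 CPM with a median of 23.4. It was 8182-fold lower (95% counting interval 2265 to 67560), with adjusted p = 1.36e-20. The common gamma chain itself, IL2RG, was at 1.17, 2.04, 6.86 and 1.43 CPM against 56.6 to 120.3 CPM with a median of 78.4, with library 3 above the other 3 and all 4 below all 20 (log2 fold change -4.80, SE 0.34, adjusted p = 3.33e-12).

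IL7R, described above, uses that chain, and so does IL4R, the interleukin 4 receptor, at 0.137, 0.186, 0.23 and 0.092 CPM against 15.2 to 97.2 CPM with a median of 29.1 (log2 fold change -7.64, SE 0.23, adjusted p = 1.03e-19). Feedback targets of the pathway were low as well. SOCS1, an inhibitor induced by STATs, was at 0.106, 0.257, 0.23 and 0.153 CPM against 2.87 to 206 CPM with a median of 20.2, and PIM1, a STAT-induced kinase, at 7.14, 7.03, 6.95 and 6.52 CPM against 17.7 to 1039 CPM with a median of 60.4, both without overlap (log2 fold change -7.08, SE 0.19, adjusted p = 1.7e-20 for SOCS1; log2 fold change -4.10, SE 0.18, adjusted p = 2.26e-16 for PIM1). STAT3 was separated higher (log2 fold change 1.56, SE 0.08, adjusted p = 1.15e-14; 1.40 corrected), as was JAK2 before the correction but not after it.

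Interferon-response genes showed the same direction. Of 36 tested, 27 were lower and 3 higher, with 15 separated lower (16 corrected) against 12.3% of all genes. IFITM1, a membrane protein that restricts virus entry, was at 4.27, 3.43, 4.29 and 4.17 CPM against 67 to 531 CPM with a median of 231 (log2 fold change -5.62, SE 0.18, adjusted p = 4.7e-19). IFIH1, a cytosolic sensor of double-stranded RNA, had 1 read in the 4 libraries and 3.6 to 19.8 CPM with a median of 13.1 elsewhere. IFI44, of less known function, was 362-fold lower at 0.0521 ± 0.0165 CPM (log2 fold change -8.27, SE 0.21, adjusted p = 3.62e-21). Among the 3 higher genes were MX1, an antiviral GTPase, at 57.4, 56.1, 57.9 and 57.3 CPM against 0.53 to 17.7 CPM with a median of 8.24, and USP18, a brake on interferon signalling, at 99.9, 95.1, 105 and 74.8 CPM against 0.296 to 25.8 CPM with a median of 7.64. Both were above all 20 other libraries (log2 fold change 3.78, SE 0.14, adjusted p = 1.13e-17 for MX1; log2 fold change 4.21, SE 0.11, adjusted p = 1.53e-20 for USP18). The list's summed level was 632 to 727 CPM in KARPAS-45 and 744 to 2204 in the others.

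Classical MHC class I genes, which present peptides to T cells, were low. HLA-B was at 3.07, 3.07, 2.73 and 2.47 CPM against 27.3 to 1093 CPM with a median of 302, and HLA-C at 23.1, 25.8, 26 and 23.8 CPM against 86.7 to 808 CPM with a median of 269. HLA-B was 139-fold lower (log2 fold change -6.49, SE 0.26, adjusted p = 3.53e-17) and HLA-C 13.3-fold lower (log2 fold change -3.44, SE 0.15, adjusted p = 1.07e-16). HLA-E was separated too (log2 fold change -2.28, SE 0.19, adjusted p = 8.06e-11). These genes are polymorphic and similar to each other, and how reads were split between them in each line is uncertain. B2M, the light chain they share, was at 693 ± 77.4 CPM, within the range of the others. It was nonetheless called lower against the mean of the lines (log2 fold change -0.44, adjusted p = 0.0016). Without LOUCY that call was lost (adjusted p = 0.0507 in edgeR). CANX, the calnexin chaperone, was the single separated gene on the high side (log2 fold change 2.03, SE 0.13, adjusted p = 7.64e-13; 1.57 corrected). Of 20 tested class I and peptide-loading genes, 5 were separated lower, beside 12.3% of all genes, and 5 also when corrected.

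Most listed genes of the cell cycle were high. Of 30 S phase genes, 25 were higher and 1 (E2F1) lower, beside 39% and 34.2% of all genes. Of them 20 were separated higher, against 16.4% of all genes (16 corrected, against 16.1%). TK1, far lower in KARPAS-45 as described above, is not in this list. Of 30 G2 and M phase genes, 25 were higher and 1 (UBE2C) lower, and 15 were separated higher (13 corrected), against the same shares. The correction ended the calls of E2F1 and UBE2C. Once corrected, 2 other S phase genes were called lower, 1 of them separated, and 0 G2 and M phase genes were. The median log2 fold changes were 1.02 and 1.15 (1.02 and 0.93 corrected). UHRF1, which guides maintenance of DNA methylation, held 1416, 1539.6, 1447 and 1383 CPM against 79.9 to 544 CPM with a median of 119 (log2 fold change 3.13, SE 0.12, adjusted p = 1.19e-17). RRM2, a subunit of ribonucleotide reductase, held 994, 967, 907 and 862 CPM against 114 to 409 CPM with a median of 199 (log2 fold change 2.17, SE 0.17, adjusted p = 1.66e-11). TYMS, thymidylate synthase, makes thymidylate by the route that does not need TK1. It held 958, 973, 892 and 849 CPM against 337 to 685 CPM with a median of 578, with no overlap (log2 fold change 0.71, SE 0.10, adjusted p = 9.1e-07), and did not pass a test against a fold of 2.

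**Figure D4:**
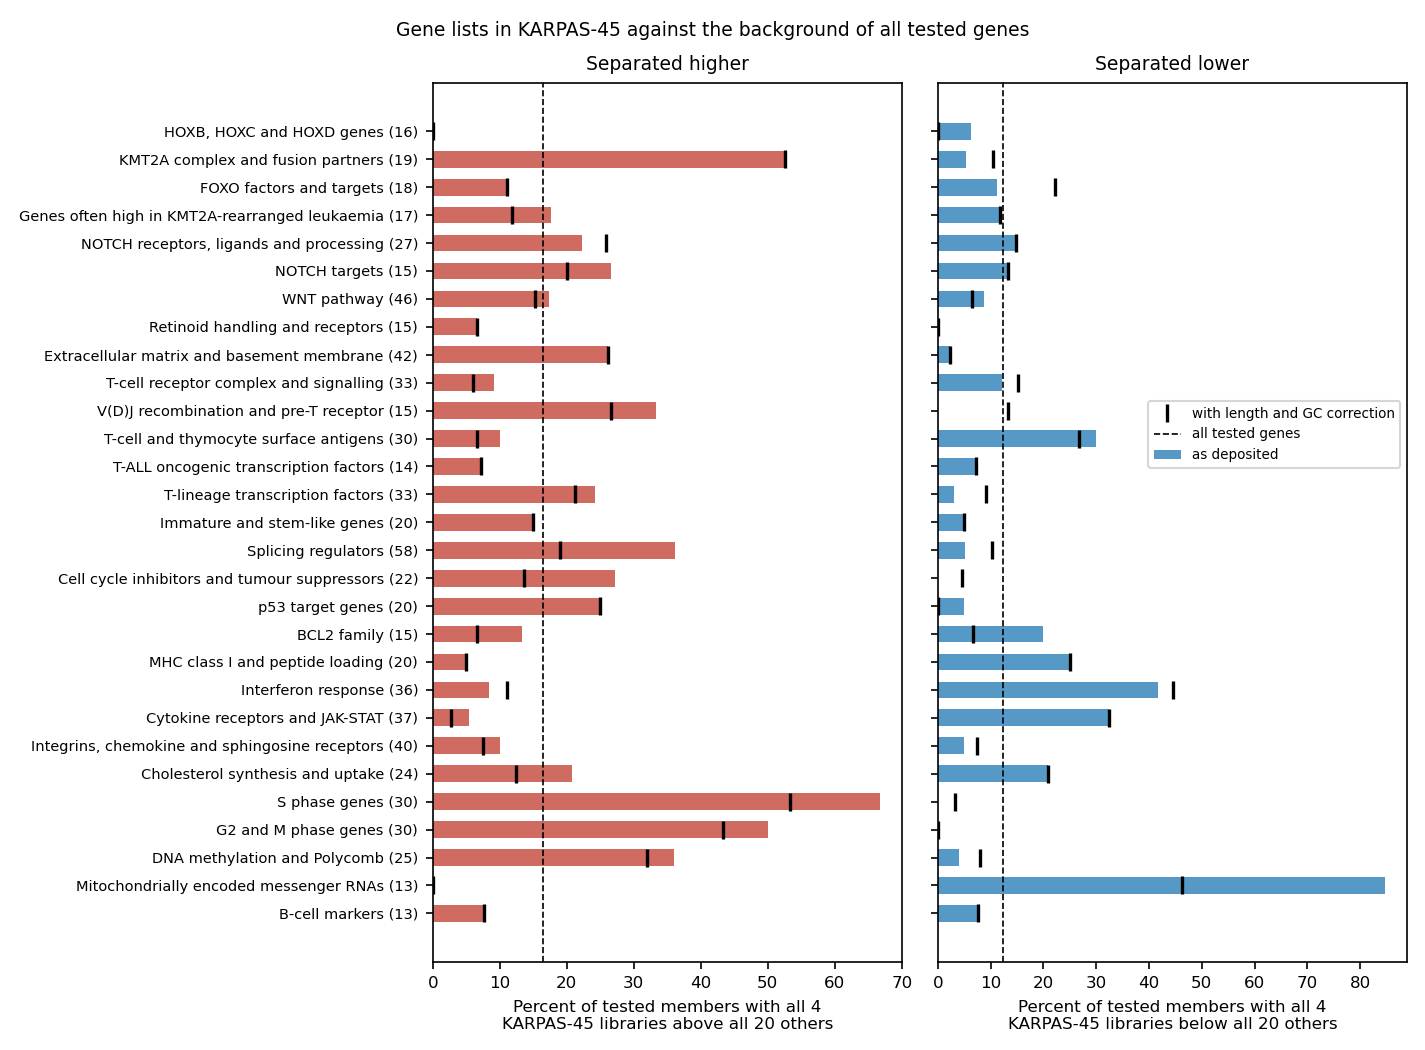
Percent of tested members of each gene list (number tested in brackets; lists with at least 13 tested) with all 4 KARPAS-45 libraries above (left) or below (right) all 20 others; bars are the deposited counts, black ticks the values with the length and GC correction, and the dashed line all tested genes (16.4% and 12.3%). S phase, KMT2A complex and G2 and M phase genes stand far above the line on the left, and mitochondrial, interferon and cytokine genes on the right.

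Cholesterol synthesis genes differed in both directions. SQLE, squalene epoxidase, which acts midway, was at 9.81, 11.4, 9.48 and 11.6 CPM against 66.8 to 233 CPM with a median of 138, below all 20 (log2 fold change -3.69, SE 0.19, adjusted p = 5.66e-15; -3.83 corrected). LSS, the next enzyme, was separated higher (log2 fold change 1.32, SE 0.13, adjusted p = 1.08e-09), and SC5D, later on, had no read. SREBF2, a transcription factor that switches these genes on, was at 145, 155, 152 and 130.4 CPM against 299.9 to 649.9 CPM with a median of 429, again without overlap (log2 fold change -1.56, SE 0.15, adjusted p = 9.29e-10). In the list of 24 tested, 5 were separated higher (among them ACAT2, IDI1, FDFT1 and LSS) and 5 lower (SQLE, TM7SF2, EBP, SC5D, SREBF2), beside 16.4% and 12.3% of all genes; with the correction 3 (ACAT2, LSS, MVD) and 5, beside 16.1% and 11%.

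QKI, the gene the study is about, was low in KARPAS-45 but not absent. It held 6.18, 7.74, 6.04 and 6.86 CPM, against means of 0 in LOUCY, 137 in HPB-ALL, 162 in TALL-1, 88 in DND-41 and 129.6 in ALL-SIL. LOUCY had no QKI read, so the mean over lines gives no usable value for it. Against single lines, QKI was higher than in LOUCY (adjusted p = 1.07e-18) and lower than in each of the other 4, with log2 fold changes from -4.59 to -3.71 (adjusted p of 4.57e-17 or less). SF1, a relative in the STAR family that recognizes the intron branch point, was separated higher but by less than a fold of 2 (log2 fold change 0.66, SE 0.08, adjusted p = 3.85e-08). MBNL1, a splicing regulator of development, stood out at 1917, 1785, 1678 and 1712 CPM against 136 to 358 CPM with a median of 213 (log2 fold change 2.96, SE 0.07, adjusted p = 3.27e-21; 2.38 corrected). Of 58 splicing regulators, 21 were separated higher and 3 lower (CLK1, CLK2, ZRSR2), against 16.4% and 12.3%. With the correction there were 11 and 6, and the list's median log2 fold change went from 0.54 to 0.18.

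Chromatin and p53 genes gave further separations. Of 25 genes of DNA methylation and Polycomb repression, 9 were separated higher and 1 (CBX7) lower (8 and 2 corrected), against 16.4% and 12.3%. BMI1, a Polycomb subunit, held 457, 427, 382 and 346 CPM against 26.8 to 177 CPM with a median of 57.5 (log2 fold change 2.63, SE 0.07, adjusted p = 6.43e-21), and TET1, which oxidizes methylated cytosine, 127, 112, 112 and 118 CPM against 13.4 to 54.2 CPM with a median of 22.5 (log2 fold change 2.21, SE 0.08, adjusted p = 8.8e-18). EZH2, the Polycomb methyltransferase, held 399.9, 398, 353 and 386 CPM, where LOUCY held 0.0386 ± 0.0335 CPM and the other 4 lines 134 to 177 on average; all 5 were lower (adjusted p of 3.78e-08 or less). Of 20 p53 targets, 5 were separated higher (MDM2, SESN1, RRM2B, ZMAT3, AEN) and 1, BBC3, lower (5 and 0 corrected), beside 16.4% and 12.3% of all genes. MDM2, the ubiquitin ligase of p53, was at 214, 213, 227 and 216 CPM against 38.7 to 105 CPM with a median of 57.4 (log2 fold change 1.85, SE 0.08, adjusted p = 4.92e-16; 1.39 corrected). BBC3, the death-promoting PUMA, was lower (log2 fold change -5.43, SE 0.90, adjusted p = 7.48e-06) and not separated once corrected. CDKN1A, a main p53 target, was between the lines at 1.38 ± 0.112 CPM.

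All 13 mitochondrially encoded messenger RNAs were lower, beside 34.2% of all genes. Of them 11 were separated, beside 12.3% of all genes (6 corrected, beside 11%). Their median log2 fold change was -2.81 (-1.80 corrected). MT-ND4, a subunit of respiratory complex I, was at 755, 777, 1447 and 1349 CPM against 3160.1 to 11119 CPM with a median of 6355, and libraries 3 and 4 of KARPAS-45 lay well above 1 and 2. In bulk libraries, fewer cells of a type and less RNA per cell cannot be told apart. The part that the length and GC trends and the low mitochondrial share play in the other results was not tested beyond the correction.

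Summed markers of other cell types in KARPAS-45 are given beside the range of the 20 other libraries, with the members that stood out. The B-cell list summed to 8.42 to 10.3 CPM in KARPAS-45 and 11.2 to 2121 in the others, with MS4A1 at 0. The myeloid list summed to 8.96 to 10.4, against 0.566 to 109, with MPO at 0 in 2 libraries. The erythroid and megakaryocyte list summed to 9.54 to 10.9, against 1.73 to 711 (HBB at 0), and the NK list to 10.8 to 13.1, against 17.7 to 396. The fibroblast and epithelial list summed to 17 to 22.4, against 1.98 to 37.1 (KRT18, COL1A2 and COL3A1 at 0). Members separated higher were EPCAM, CD24 and, in the fibroblast and epithelial list, ACTA2. EPCAM, an epithelial adhesion protein, was at 9.25, 12.4, 11.6 and 9.79 CPM with no read elsewhere. CD24, a B-cell and epithelial antigen, was at 6.67, 7.24, 5.93 and 6.7 CPM against at most 0.0342. CD79A of the B-cell list and NKG7 of the NK list were separated lower.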

How the data were processed

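RNA of 24 untreated libraries, 4 for each of 6 T-ALL lines, was sequenced. Per the submitters' processing notes, reads were trimmed with Trimmomatic 0.39 and aligned with STAR 2.7.11b to GRCh38; no source at hand names the counting tool or its strand setting. The authors deposited whole-number read counts per gene, and 20348 genes passed filterByExpr. Counts were scaled by TMM and tested with edgeR 4.0.16 (R 4.3.3; quasi-likelihood F test, Benjamini-Hochberg, adjusted p under 0.05), KARPAS-45 against the mean of the 5 other line coefficients and against each line, with all 24 libraries sharing the estimate of spread. The tests were run on simulated counts in which the other 5 lines did not differ from each other. That check does not cover genes that are silent in some of the lines. Coordinates and symbols are from GENCODE 29 and RefSeq; 94.6% of tested genes had a length and GC value.

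The members, lists and tests were chosen with earlier results of these data known. Named genes are QKI, 5 markers, the 15 widest separations in each direction, at least 5 CPM on the higher side, and up to 8 members of each of 40 lists; genes named beside small counts, and those of other roles, were chosen after their values were seen. Some genes that the rule names are not reported here. Alternatives were other scaling (RLE), filter, tools (DESeq2 1.42.0, limma 3.58.1), a test against a fold of 2, leaving out each line or library, HPB-ALL alone as the reference, a replicate block and, added after seeing the data, the length and GC correction. At 44.1 M to 84.0 M counts per library, 3 counts correspond to 0.0428 to 0.0653 CPM. Intervals cover counting error only. Replicate numbers did not pair the KARPAS-45 libraries with those of other lines.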

Additional observations from a re-analysis of the deposited data

Results flagged for a closer look

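In each group of 4 KARPAS-45 libraries, a value was set apart when its gap to the nearest library took up most of the range of the 4. Of 116 gene levels examined, 10 were set apart, and chance sets apart about 1 in 20. Library 2 was the lowest for IRAK3 at 156 CPM (nearest 169), for SYK at 356 CPM (nearest 411) and for IFITM1 at 3.43 CPM (nearest 4.17), and the highest for COL6A2 at 58.2 CPM (nearest 54.5). Library 4 was the lowest for NOTCH3 at 985 CPM (nearest 1089), for CTNNB1 at 218 CPM (nearest 220.1) and for ITGB2 at 452 CPM (nearest 527). Library 1 was the highest for KIAA1549L at 41.7 CPM (nearest 38.4) and for JAK2 at 44.1 CPM (nearest 40.2). Library 3 was the highest for IL2RG at 6.86 CPM (nearest 2.04). In all 10 genes the 4 libraries stayed on the same side of all 20 others.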

How the results depend on the processing

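Against a fold of 2, 3816 genes were higher and 3785 lower, and the pair totals fell from 15103 to 8372 for LOUCY, 15501 to 9100 for HPB-ALL, 14694 to 8155 for TALL-1, 15113 to 8755 for DND-41 and 15128 to 8790 for ALL-SIL. With HPB-ALL alone as the reference, 6504 genes were separated higher and 7598 lower, since only 4 libraries had to be cleared. Leaving out 1 library gave 7687 to 8135 higher and 6789 to 7152 lower genes, 3315 to 3485 and 2524 to 2670 separated, and pair totals of 14806 to 15619 for LOUCY, 15361 to 16029 for HPB-ALL, 14364 to 15147 for TALL-1, 14859 to 15589 for DND-41 and 14737 to 15581 for ALL-SIL.

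Libraries of KARPAS-45 and of each other line with the same replicate number correlated at -0.164 to 0.116, so KARPAS-45 shares only a number with them; pairs among the other lines were not examined. With a replicate block, which leaves out the LOUCY libraries that carry no number, 8161 genes were higher and 7175 lower, 3400 and 2665 of them separated; with the correction as well, 8555, 6574, 3355 and 2402.

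Of 5471 values of 144 named genes, 5417 kept their direction and side of the threshold, 28 lost the threshold, 16 gained it and 10 turned. DTX1 turned to -2.32 without LOUCY and -2.47 against HPB-ALL alone. Against HPB-ALL alone PBX3 turned to -0.84, TRAC to -3.50, RAG1 to -1.07 and CD4 to -2.97. With the length and GC correction TRBC2 turned to 0.52 and E2F1 to 0.0344, and with the block added to 0.49 and 0.00756. QKI, not called in the mean over lines, passed with DESeq2 (-1.19), limma-voom, without LOUCY (-4.24) and against HPB-ALL alone (-4.35). FOXO4, TYMS and SF1 did not pass against a fold of 2 (adjusted p = 0.746, 1 and 1). A line at 0 counts decides the mean over lines: of 1010 genes at 0 in KARPAS-45 and in at least 1 other line, 0 were called by edgeR.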

Other observations

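Receptors for migration and adhesion differed in both directions. CCR9, the chemokine receptor that draws thymocytes to the thymus and gut, held 112, 108, 117 and 104 CPM in KARPAS-45 against 0 to 43.9 CPM with a median of 4.73 (log2 fold change 5.67, SE 0.27, adjusted p = 9.01e-16). ITGAV, the integrin alpha V chain, held 77.6, 75.8, 80.1 and 79.4 CPM against 0 to 36 CPM with a median of 17.5, and ITGB2, the beta chain of leukocyte integrins, 527, 536, 538 and 452 CPM against 88.6 to 298 CPM with a median of 137. No KARPAS-45 library overlapped the others for any of them. ICAM1, a ligand of ITGB2 integrins, was the reverse, at 3.11, 2.7, 3.32 and 2.67 CPM against 4.15 to 28.6 CPM with a median of 18 (log2 fold change -2.39, SE 0.17, adjusted p = 5.29e-12), as was the sphingosine receptor S1PR4 (log2 fold change -3.63, SE 0.17, adjusted p = 1.44e-15). Of 40 tested genes of these families, 4 were separated higher (ITGAV, ITGB2, CCR9, S1PR3) and 2 lower (S1PR4, ICAM1), beside 16.4% and 12.3% of all genes. With the correction 3 and 3 were, as S1PR3 left and ITGA4 joined the lower side.

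Several tumour suppressors were higher. RB1, the retinoblastoma protein that restrains entry to S phase, held 553, 528, 515 and 503 CPM against 49.7 to 199.9 CPM with a median of 140 (log2 fold change 2.08, SE 0.09, adjusted p = 1.49e-16; 1.52 corrected). CDKN1C, an imprinted inhibitor of cyclin-dependent kinases, held 8.72, 10.1, 8.65 and 10.0 CPM against at most 0.117 CPM. TP73, a relative of p53, held 71.5, 73.2, 78.4 and 68.1 CPM, with DND-41 next at 27.4 ± 3.78 CPM and lower (log2 fold change 1.41, adjusted p = 9.9e-07). Of 22 tested cell cycle inhibitors and tumour suppressors, 6 were separated higher and 0 lower, beside 16.4% and 12.3% of all genes. With the correction the counts were 3 (RB1, CDKN1C, TP73) and 1 (ATM), no larger a share than the 16.1% and 11% of all genes.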
